A study of Mus musculus with 8 samples.

Results

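The matrix metalloproteases (MMP), the ADAM and ADAMTS proteases, the ADAMTS-like proteins and the tissue inhibitors of metalloproteases (TIMP) were followed in mouse colon fibroblasts with and without fractionated irradiation. Members were every protein-coding gene whose GENCODE M21 symbol is Mmp, Timp, Adam, Adamts or Adamtsl with a number, whatever its level. The rule found 83 genes among the 55573 in the count files: 33 ADAM, 19 ADAMTS, 5 ADAMTS-like, 22 MMP and 4 TIMP genes. Of these 83, 47 passed a filter on low counts and were tested.

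Polyadenylated RNA was sequenced in 8 libraries, and reads were counted per gene. In 4 irradiated libraries the fibroblasts had received 3 fractions of 2 Gy. In 4 non-irradiated libraries they had received no dose. Both groups were C57BL6/J colon fibroblasts grown flat on plates in Advanced DMEM F12 with 10% FBS, both were given APTKA-conditioned medium (the labels do not spell APTKA out), and both were collected 72 h after the time of the first dose. There is no group without conditioned medium among these libraries, so every difference below is one between fibroblasts that had all received it. The numerals I to IV come from the sample titles. The design text of the series calls the 4 samples of each group independent. The labels do not say whether the libraries of a group came from separate animals or cultures. The p-values therefore measure the spread between these libraries, which may be technical.

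These enzymes cut the proteins around and on the surface of cells. MMPs are zinc proteases, made with an inhibitory propeptide, that degrade collagens, gelatins, proteoglycans and basement membrane. ADAMs are membrane proteins, several of which shed the outer part of growth factors, cytokines and receptors, while others lack the catalytic zinc site. ADAMTS proteases are secreted and cut proteoglycans, procollagens and other matrix proteins, ADAMTS-like proteins share their matrix-binding modules without the protease, and TIMPs bind and block the active sites of MMPs and of some ADAM and ADAMTS enzymes. In the gut wall, fibroblasts are a known source of MMP2, MMP14, stromelysins and TIMPs.

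Counts per library ran from 30203137 to 36497990 in irradiated libraries and from 28731227 to 37157216 in non-irradiated libraries. At this depth a gene without counts in a library is compatible with up to 3 counts, or 0.0812 to 0.105 CPM (counts scaled to library size), and this covers counting error only. The 11 fibroblast markers were all tested, and their summed level was 14796 to 16118 CPM in irradiated and 16243 to 19076 CPM in non-irradiated libraries, without overlap. Of these markers Col1a2 (log2 fold change -0.24, adjusted p = 0.0101) and Vim (-0.14, adjusted p = 0.0462) were called lower, and the others were not called. Among those, Dcn (0.06), Pdpn (0.08) and Lum (0.10) lay above 0. Col1a1 (-0.20), Col3a1 (-0.13), Pdgfrb (-0.12), Thy1 (-0.17), Fap (-0.36) and Pdgfra (-0.03) lay below 0. Most of the sum came from collagens, with Col3a1 at 5571 and Col1a2 at 4539 CPM on average in irradiated libraries. The part of the lower markers in the members' results was not tested. All 8 epithelial and all 6 neutrophil markers stayed under 1 CPM in every library, with S100a9 and Retnlg at 0 counts. Of 7 macrophage markers 5 stayed under 1 CPM, and their sum was 4.51 to 5.50 CPM in irradiated and 3.91 to 5.34 CPM in non-irradiated libraries. The 6 smooth muscle and pericyte markers summed to 37.8 to 50.5 CPM in irradiated and 44.0 to 51.8 CPM in non-irradiated libraries, with none of the 5 tested called. Irradiated libraries I and II stood apart in mitochondrial rRNA, with 15129 and 15263 CPM against 4178 to 5934 CPM in the other 6. The main results are therefore also given without them. By chi-square per degree of freedom between libraries, irradiated I and II (5.46) and irradiated III and IV (5.12) were closest. Every other irradiated pair was further apart, at 15.99 to 27.55. Non-irradiated pairs ran from 5.29 to 13.93. The irradiated libraries thus fell into pairs, while the tests treated each library as separate. The cause of this pairing was not tested. These are bulk libraries, in which fewer cells of a kind and less RNA per cell cannot be told apart.

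Transcripts of 5 members were lower in irradiated fibroblasts, and those of none were higher, at an adjusted p under 0.05 (edgeR quasi-likelihood test with Benjamini-Hochberg adjustment). Before adjustment 4 members were higher at p under 0.05 (Mmp2, Mmp14, Mmp10 and Adamts1) and 10 lower, and DESeq2 called 3 higher and limma-voom 2. The 5 called members were the meltrins Adam12 and Adam19, the aggrecanase Adamts4, and the proteases Mmp19 and Mmp17. They are 10.6% of the 47 members tested, where 4.15% of the 15259 genes tested across the genome were lower, 2.59% were higher and 6.74% were called in either direction. The CPM of the 4 irradiated and the 4 non-irradiated libraries did not overlap for 8 of the 47 members (17%), 6 of them lower and 2 higher, against 14.2% of all genes tested. Differences were small: no tested member reached 1.5-fold, and 5 had a fold of at least 1.2 in either direction, of which Adam12 and Mmp17 were called and Adam1a, Mmp15 and Mmp24, all near 1 CPM or below, were not. The median log2 fold change, irradiated over non-irradiated, was -0.02 over the 47 members and 0.00 over all genes tested, and the median size of the change was 0.10 and 0.09. The tested members are those with enough reads, not all members.

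**Figure D1:**
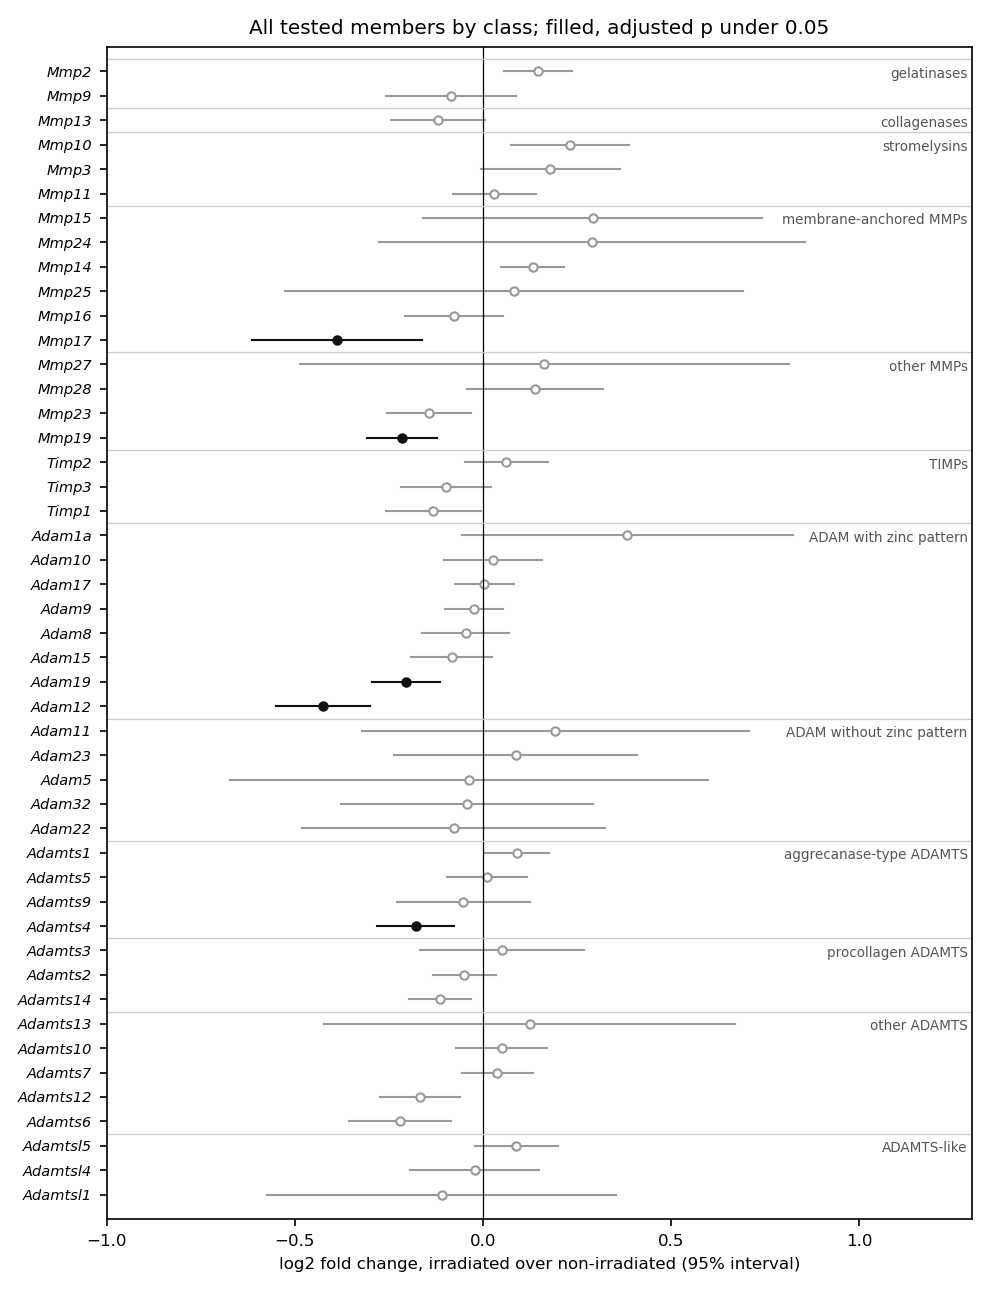
Log2 fold change, irradiated over non-irradiated, on the x axis for each of the 47 tested members, which run down the y axis by class, with bars for the 95% interval. The 5 filled points (Adam12, Mmp17, Mmp19, Adam19 and Adamts4) are those with an adjusted p under 0.05 and all lie left of 0, and the widest bars belong to members under 2 CPM.

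The gelatinase Mmp2 (chr8:92827291-92853420, mm10), which degrades denatured collagen and type IV collagen, was measured at 562, 539, 543 and 552 CPM in irradiated libraries I to IV, against 490.4, 509, 526 and 458 CPM in non-irradiated libraries I to IV. Every irradiated library lay above every non-irradiated one. Mmp2 averaged 549 ± 10.5 CPM in irradiated and 496 ± 28.8 CPM in non-irradiated libraries (SD, n = 4 each), a log2 fold change of 0.15 ± 0.04 (SE) that missed the threshold (adjusted p = 0.0545, edgeR). It passed without non-irradiated library III (adjusted p = 0.0236). The membrane protease Mmp14 (chr14:54431612-54445364), which cleaves collagen at the cell surface and activates the MMP2 proenzyme in a complex with TIMP2, showed the same order. Its levels were 716, 708, 695 and 707 CPM in irradiated libraries, against 649, 621, 689 and 620.2 CPM in non-irradiated libraries. The groups again did not overlap, though irradiated library III and non-irradiated library III were close. Mmp14 averaged 706 ± 8.48 CPM in irradiated and 645 ± 32.1 CPM in non-irradiated libraries, a log2 fold change of 0.13 ± 0.04, which was not called (adjusted p = 0.0600) and was called without non-irradiated library III (adjusted p = 0.0138). Without irradiated libraries I and II the log2 fold change was 0.14 for Mmp2 (adjusted p = 0.245) and 0.12 for Mmp14 (adjusted p = 0.306), with 2 irradiated libraries left. Over the 17 alternatives Mmp2 was called higher in 8 and Mmp14 in 6. The second gelatinase, Mmp9, was far lower at 29.4 ± 3.28 CPM in irradiated and 31.3 ± 2.88 CPM in non-irradiated libraries. Its log2 fold change of -0.08 had a 95% interval of -0.26 to 0.09 (adjusted p = 0.601), and it was -0.17 without irradiated libraries I and II (adjusted p = 0.447).

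Mmp17 (chr5:129584169-129611099) encodes a protease tethered to the membrane by a lipid anchor. It was the one member past the test among the 6 MMPs classed here as membrane-anchored, a fixed list that does not take Mmp23. It was measured at 6.03, 5.18, 5.89 and 5.83 CPM in irradiated libraries, against 8.62, 6.07, 7.96 and 7.41 CPM in non-irradiated libraries. The groups did not overlap, but non-irradiated library II lay only just above irradiated library I. The mean was 5.73 ± 0.380 CPM in irradiated and 7.51 ± 1.08 CPM in non-irradiated libraries, a log2 fold change of -0.39 ± 0.10 (adjusted p = 0.0415). This call was lost on leaving out any single library other than non-irradiated II, with adjusted p from 0.0696 to 0.117. Without irradiated libraries I and II together the log2 fold change was -0.36 and was not called (adjusted p = 0.191), and over all 17 alternatives it lay between -0.47 and -0.32. Mmp16, a further membrane protease, had 23.7 ± 0.950 CPM in irradiated and 25.0 ± 2.02 CPM in non-irradiated libraries, and Mmp15, Mmp24 and Mmp25 all stayed under 1.2 CPM in every library.

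**Figure D2:**
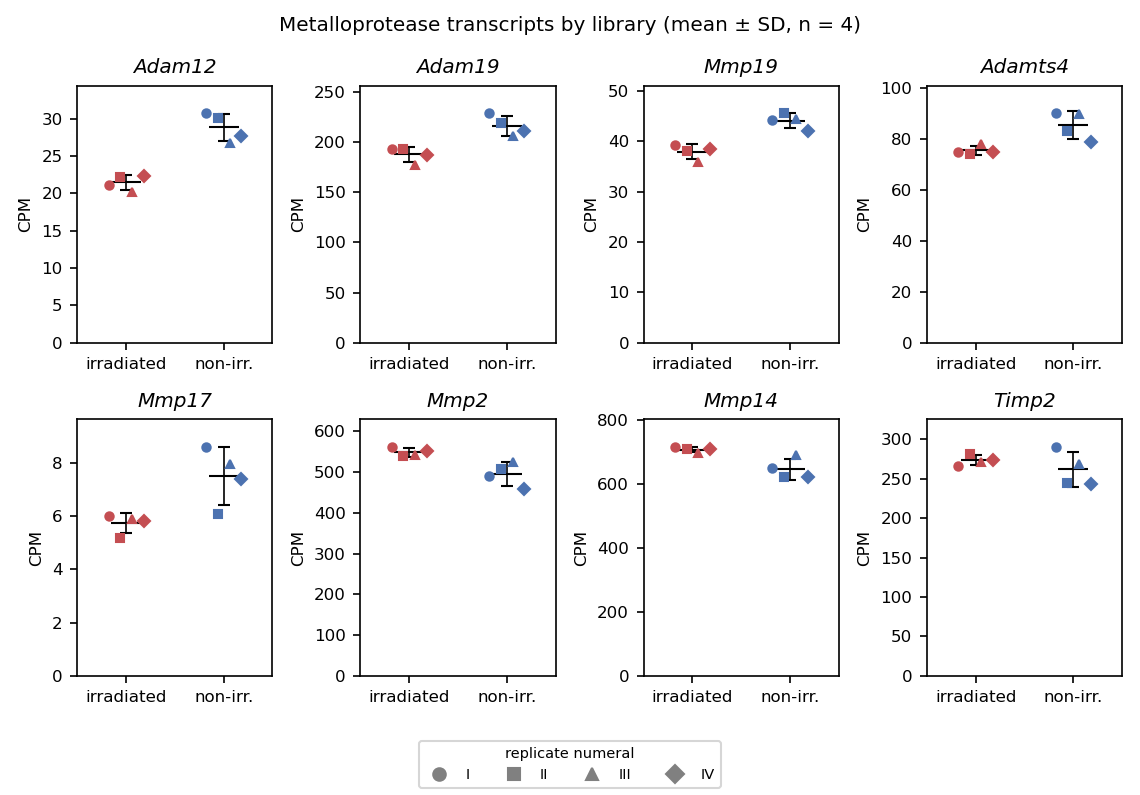
Levels in CPM (y axis, starting at 0) for the 5 called members and for Mmp2, Mmp14 and Timp2, with irradiated libraries in red at the left and non-irradiated libraries in blue at the right, marker shapes for the numerals I to IV, and bars for the mean ± SD (n = 4). The red points lie below the blue ones for Adam12, Adam19, Mmp19, Adamts4 and Mmp17 and above them for Mmp2 and Mmp14, while the groups overlap for Timp2.

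The stromelysins Mmp3 and Mmp10 and the interstitial collagenases sit side by side on chromosome 9, and the cluster holds both the most abundant of all members and genes without a single count. The cluster held 9 members between 7272514 and 7699585 on chromosome 9, a span of 427 kb, of which Mmp13, Mmp3, Mmp10 and Mmp27 were tested. Per kilobase of exon, which allows genes to be compared, the stromelysin Mmp10 had a level of 273 ± 31.5 CPM per kb in irradiated and 232 ± 17.2 in non-irradiated libraries, the highest of all 83 members. Its neighbour Mmp3, a stromelysin that cuts proteoglycans, fibronectin and other MMP proenzymes, reached 52.1 ± 6.68 CPM per kb in irradiated and 46.0 ± 4.45 in non-irradiated libraries. Mmp13, the main interstitial collagenase of the mouse, reached 10.3 ± 0.764 CPM per kb in irradiated and 11.2 ± 0.523 in non-irradiated libraries. Mmp27, at the other side of Mmp10, had 0.150 ± 0.0489 CPM per kb in irradiated and 0.135 ± 0.0163 in non-irradiated libraries. The remaining 5 genes were close to silent over all 8 libraries, with 32 counts for the macrophage elastase Mmp12, 15 for the collagenase Mmp1b, 2 for the neutrophil collagenase Mmp8 and none for the enamel protease Mmp20 and the epithelial matrilysin Mmp7. Mmp1b has a near copy beside it, Mmp1a, and how the counting treated reads that map to several places is not given in the sources used here.

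**Figure D3:**
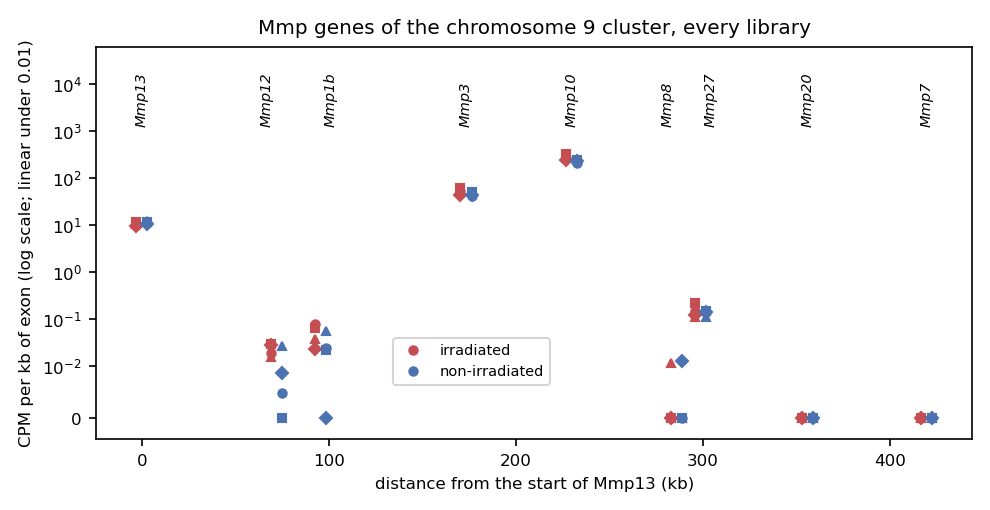
Level of each cluster gene in every library, in CPM per kb of exon (y axis, log scale, linear under 0.01), against the distance of its start from that of Mmp13 in kb (x axis), with irradiated libraries in red to the left of non-irradiated libraries in blue and marker shapes for the numerals I to IV as in the plots of levels by library. Mmp10 stands highest, Mmp3 and Mmp13 follow, and Mmp20 and Mmp7 lie at 0 in all 8 libraries.

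Mmp10 was measured at 447, 539, 481 and 411 CPM in irradiated libraries, against 361, 419, 426 and 393 CPM in non-irradiated libraries. The irradiated libraries reached higher, but irradiated library IV fell within the non-irradiated range. The log2 fold change was 0.23 ± 0.07, with a 95% interval of 0.08 to 0.39, and was not called (adjusted p = 0.0776). It was called without irradiated library IV (adjusted p = 0.0306), and it was 0.16 with an adjusted p of 0.327 without irradiated libraries I and II. Mmp3 stood at 96.0, 108, 92.8 and 78.7 CPM in irradiated libraries, against 73.6, 89.3, 89.8 and 78.7 CPM in non-irradiated libraries, and the groups overlapped (log2 fold change 0.18 ± 0.09, adjusted p = 0.251). The log2 fold change of Mmp3 was 0.05 without irradiated libraries I and II (adjusted p = 0.853). For both stromelysins irradiated library II was the highest of the irradiated group, irradiated library IV the lowest, and non-irradiated library I the lowest of its group. Mmp13 had 26.9, 30.1, 27.6 and 25.2 CPM in irradiated libraries, against 29.1, 30.1, 31.6 and 28.4 CPM in non-irradiated libraries, with overlap and a log2 fold change of -0.12 ± 0.06 (adjusted p = 0.257). Mmp11, a stromelysin outside the cluster that is known from stromal cells around tumours, had 127 ± 5.23 CPM in irradiated and 125 ± 8.80 CPM in non-irradiated libraries, and its 95% interval of log2 fold change ran from -0.08 to 0.14.

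**Figure D4:**
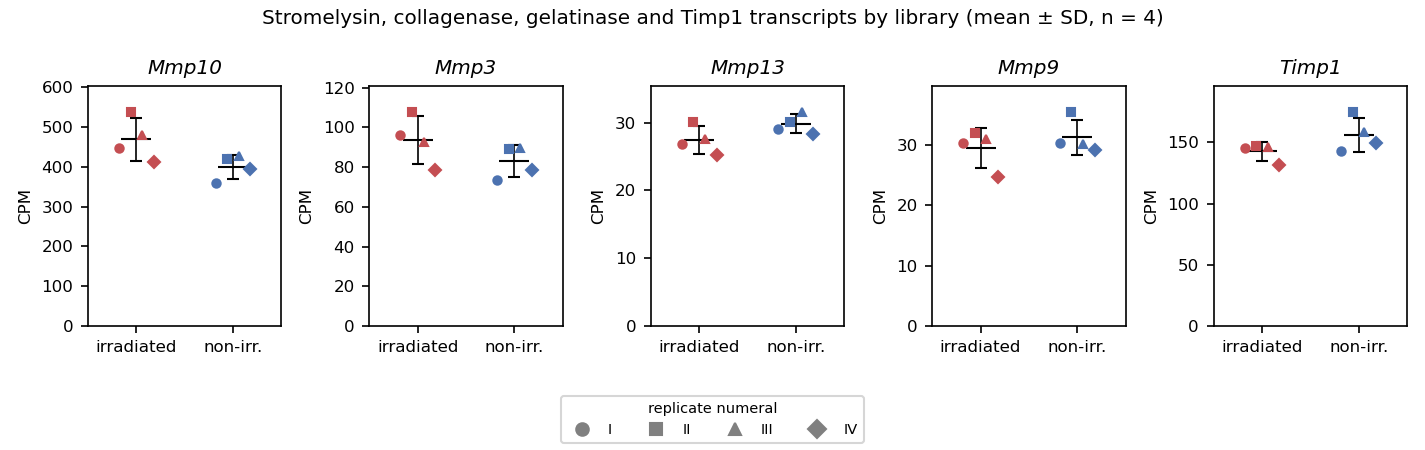
Levels in CPM (y axis, starting at 0) of Mmp10, Mmp3, Mmp13, Mmp9 and Timp1 in each library, irradiated in red at the left and non-irradiated in blue at the right, with marker shapes for the numerals I to IV and bars for the mean ± SD (n = 4). The groups overlap in all 5 panels, and irradiated library IV is the lowest irradiated library in each.

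The letters of an AP-1 site and of a TATA box were common before the starts of the cluster genes. RefSeq promoters (GRCm38.p6, 250 bases before to 50 after the gene's start) were matched by symbol for 52 of the 83 members, 31 of them tested. Mmp2 and the called members Adam12, Mmp19, Adamts4 and Mmp17 had no matched promoter and could not be searched. The matched promoters were searched for TGACTCA, the letters of an AP-1 site, on both strands (TGAGTCA on the other) and for TATAAA on the gene's strand. TGACTCA was present for 6 of the 9 cluster genes (66.7%) and for 3 of the 43 other members with a matched promoter (6.98%), Adam19, Adam1b and Adam29. It was present for 5.95% of the 27025 genes in the promoter table. TATAAA was present for 7 of the 9 cluster genes (77.8%) and for 9.77% of all genes. Both were present together for Mmp13, Mmp12, Mmp1b, Mmp3, Mmp10 and Mmp7 in the cluster, for Adam29 among the 43 other members and for 0.829% of all genes. The 6 cluster genes with both words thus include the 3 most abundant ones and also Mmp7, which had no counts. A match to these letters is a description and not a measured binding site. The 150 bases before the RefSeq start are shown for the 3 abundant cluster genes, for Mmp14, which has neither word, and for Adam19, where 1 of 3 listed starts has TGAGTCA. They lie at chr9:7272364-7272513, chr9:7445672-7445821, chr9:7502192-7502341, chr14:54431448-54431597 and chr11:46055834-46055983, all on the plus strand and written 5′ to 3′, with the AP-1 letters (either strand) and TATAAA in capitals.
Mmp13: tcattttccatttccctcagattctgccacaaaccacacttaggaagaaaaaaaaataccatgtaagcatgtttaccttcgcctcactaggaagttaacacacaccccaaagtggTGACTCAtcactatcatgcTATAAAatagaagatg
Mmp3: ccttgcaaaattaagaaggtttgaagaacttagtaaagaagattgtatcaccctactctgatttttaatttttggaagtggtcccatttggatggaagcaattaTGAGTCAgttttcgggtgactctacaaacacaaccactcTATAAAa
Mmp10: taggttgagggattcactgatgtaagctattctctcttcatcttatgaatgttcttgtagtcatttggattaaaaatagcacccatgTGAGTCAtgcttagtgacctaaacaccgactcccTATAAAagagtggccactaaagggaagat
Mmp14: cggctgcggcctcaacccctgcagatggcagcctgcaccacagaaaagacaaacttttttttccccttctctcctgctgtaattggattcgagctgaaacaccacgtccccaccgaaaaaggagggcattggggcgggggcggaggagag
Adam19: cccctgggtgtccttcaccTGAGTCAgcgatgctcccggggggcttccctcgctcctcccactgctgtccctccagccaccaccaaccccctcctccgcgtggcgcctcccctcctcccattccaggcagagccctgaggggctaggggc
The AP-1 word begins 35 bases before the start in Mmp13, 46 in Mmp3 and 63 in Mmp10, and 12, 32 and 27 bases separate it from TATAAA in these 3 genes. TATAAA itself begins 16 bases before the listed start in Mmp13, 7 in Mmp3 and 29 in Mmp10. In Adam19 the AP-1 word begins 131 bases before the start.

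Among the other MMPs, Mmp19 (chr10:128790910-128800824), a soluble protease that cleaves basement membrane proteins, fell. It was measured at 39.3, 38.0, 35.9 and 38.5 CPM in irradiated libraries, against 44.3, 45.6, 44.4 and 42.0 CPM in non-irradiated libraries. All 4 irradiated libraries lay below all 4 non-irradiated libraries, with a gap wider than the SD of either group. Mmp19 averaged 37.9 ± 1.45 CPM in irradiated and 44.1 ± 1.49 CPM in non-irradiated libraries, a log2 fold change of -0.22 ± 0.04 (adjusted p = 0.00847), which was -0.25 without irradiated libraries I and II (adjusted p = 0.0497). At most 28.3% of its exon length overlaps Gm47093 and Tmem198b on the other strand, as the overlaps were added up gene by gene. The strand setting of the counting is not given in the sources used here. Tmem198b itself had 17.4 CPM in irradiated and 17.0 CPM in non-irradiated libraries (adjusted p = 0.768). Mmp23, the most abundant of this class per kilobase, had 60.9 ± 3.16 CPM in irradiated and 67.3 ± 4.19 CPM in non-irradiated libraries (log2 fold change -0.14, adjusted p = 0.126). Mmp28, or epilysin, had 17.8 ± 1.17 CPM in irradiated and 16.2 ± 2.01 CPM in non-irradiated libraries.

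None of the 3 tested TIMPs passed the test. Timp1, a secreted inhibitor induced in many activated fibroblasts, was measured at 145, 147, 147 and 131 CPM in irradiated libraries, against 143, 175, 158 and 149 CPM in non-irradiated libraries. Irradiated library IV was the lowest of the 8, and the 3 other irradiated libraries lay within the non-irradiated range (log2 fold change -0.13 ± 0.06, adjusted p = 0.214). Timp2, the inhibitor that also bridges MMP14 and the MMP2 proenzyme, stood at 266, 281, 271 and 274 CPM in irradiated libraries, against 290.4, 244, 268 and 244 CPM in non-irradiated libraries. The irradiated values fell inside the wider non-irradiated spread, and the 95% interval of the log2 fold change was -0.05 to 0.17 (adjusted p = 0.534). Timp3, which binds the matrix and also inhibits ADAM17, had 20.1 ± 0.699 CPM in irradiated and 21.5 ± 1.19 CPM in non-irradiated libraries (adjusted p = 0.343), and 21.3% of its exon length overlaps Syn3 on the other strand, a gene with 65 counts in all 8 libraries. Timp4 had 26 counts in all and was not tested.

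Summed over members, the MMP level was 710.5, 761, 718 and 675 CPM per kb in irradiated libraries, against 622, 664, 689 and 618 CPM per kb in non-irradiated libraries. The 2 ranges overlapped through irradiated library IV. The TIMP sum was 235, 240.3, 237 and 221 CPM per kb in irradiated libraries, against 238, 263, 249 and 233 CPM per kb in non-irradiated libraries, also with overlap. The ratio of the sums, which does not depend on how libraries are scaled against each other, was 3.03, 3.17, 3.02 and 3.06 in irradiated libraries, against 2.61, 2.53, 2.76 and 2.65 in non-irradiated libraries. The ratios of the 2 groups did not overlap (3.07 ± 0.0667 in irradiated and 2.64 ± 0.0979 in non-irradiated libraries). It was formed with the values of its parts known and is given as a description with no test. Mmp10 made up 36.9% of the MMP sum as a mean over the 8 libraries, and Mmp10, Mmp2 and Mmp14 together 76.3%. Timp1 made up 70.2% of the TIMP sum and Timp1 with Timp2 98.9%. The ratio therefore follows 5 transcripts, none of which passed the test on its own, and it says nothing of protein, proenzyme activation or activity.

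**Figure D5:**
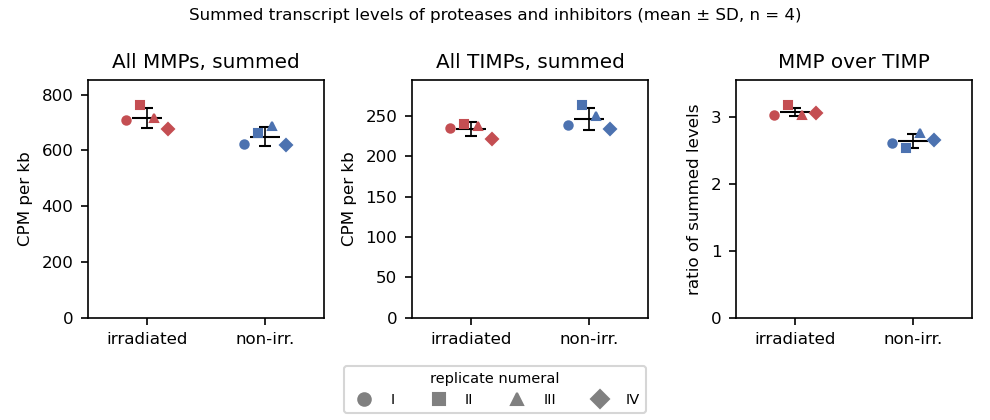
Summed MMP level, summed TIMP level (both in CPM per kb of exon) and their ratio on the y axes, each starting at 0, with irradiated libraries in red at the left and non-irradiated libraries in blue at the right, marker shapes for the numerals I to IV and bars for the mean ± SD (n = 4). The sums overlap between the groups, while the 4 irradiated ratios lie between 3.02 and 3.17, above the 2.53 to 2.76 of the non-irradiated libraries.

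The clearest change among all members was in Adam12. Adam12 (meltrin alpha, chr7:133883199-134232146), a membrane protease known from muscle fusion and from activated stromal cells, was measured at 21.1, 22.3, 20.2 and 22.4 CPM in irradiated libraries, against 30.7, 30.1, 26.8 and 27.8 CPM in non-irradiated libraries. The lowest non-irradiated library exceeded the highest irradiated one by more than the SD of either group. Adam12 averaged 21.5 ± 1.05 CPM in irradiated and 28.9 ± 1.86 CPM in non-irradiated libraries, which is 25.5% lower in irradiated libraries, a log2 fold change of -0.42 ± 0.06 (adjusted p = 0.000505). Without irradiated libraries I and II it was -0.44 (adjusted p = 0.00801). Its relative Adam19 (meltrin beta, chr11:46055992-46147343), which sheds neuregulins, also fell. Adam19 had 193, 193, 178 and 187 CPM in irradiated libraries, against 229, 219.7, 206 and 212 CPM in non-irradiated libraries. Here too the groups did not overlap, and library III was the lowest within each group, as it was for Adam12. The means were 188 ± 7.45 CPM in irradiated and 217 ± 9.87 CPM in non-irradiated libraries, a log2 fold change of -0.20 ± 0.04 (adjusted p = 0.00922), which was -0.25 without irradiated libraries I and II (adjusted p = 0.0260). Of the exon length of Adam19, at most 15% overlaps Gm16033 and Gm16034 on the other strand, both with 0 counts.

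Of the 33 ADAM genes, 20 encode the zinc-binding pattern of an active metalloprotease in an annotated coding transcript, and 8 of those 20 were tested, with 2 lower and none higher. Adam9 made up 55.2% of the summed ADAM level, and Adam9, Adam19, Adam17, Adam15 and Adam10 together 95.5%. The main sheddases did not pass the test. Adam17, which releases TNF and EGF receptor ligands, averaged 175 ± 5.44 CPM in irradiated and 175 ± 5.17 CPM in non-irradiated libraries, and its 95% interval of log2 fold change ran from -0.08 to 0.08. Adam10, which cuts Notch and cadherins, averaged 73.2 ± 2.94 CPM in irradiated and 71.8 ± 6.69 CPM in non-irradiated libraries, with an interval of -0.10 to 0.16. Adam9, the most abundant ADAM, averaged 478 ± 19.7 CPM in irradiated and 486 ± 6.84 CPM in non-irradiated libraries, with an interval of -0.10 to 0.05. As a fold, the widest of these 3 intervals, that of Adam10, ran from 0.931 to 1.11.

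Adam15, which binds integrins through its disintegrin domain, averaged 108 ± 2.85 CPM in irradiated and 115 ± 8.25 CPM in non-irradiated libraries (adjusted p = 0.365), and 20.6% of its exon length overlaps 4731419I09Rik on the other strand. Adam8, best known from leukocytes, averaged 25.9 ± 1.22 CPM in irradiated and 26.8 ± 1.39 CPM in non-irradiated libraries (adjusted p = 0.685). Adam1a had the third largest fold of all tested members, a log2 fold change of 0.38 with a 95% interval of -0.06 to 0.82 at 1.11 ± 0.160 CPM in irradiated and 0.860 ± 0.191 CPM in non-irradiated libraries. It was not called (adjusted p = 0.308). At most 99.0% of its exon length overlaps Tmem116 on the other strand and Gm42878 and Mapkapk5 on its own. The figure is an upper limit, since a base shared with several of these genes was counted for each. How far its reads could be told apart from theirs was not tested, and the strand setting of the counting is not given in the sources used here. Tmem116 and Mapkapk5 had log2 fold changes of 0.47 and 0.55 (adjusted p = 0.178 and 0.104), and Gm42878 had 0 counts. Of the 13 ADAM genes without the zinc pattern 5 were tested and none was called. The most abundant of them per kilobase, Adam32, a gene known from the testis, had 1.68 ± 0.324 CPM in irradiated and 1.73 ± 0.106 CPM in non-irradiated libraries. Adam33 had 17 counts in all libraries and was not tested.

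Among the ADAMTS genes 1 of 12 tested members was called. Adamts4 (chr1:171250421-171260637), an aggrecanase that also cuts versican, was measured at 75.0, 74.1, 78.0 and 74.8 CPM in irradiated libraries, against 89.9, 83.2, 89.8 and 78.7 CPM in non-irradiated libraries. The irradiated libraries all lay lower, but irradiated library III and non-irradiated library IV differed by less than the SD of either group. The means were 75.5 ± 1.75 CPM in irradiated and 85.4 ± 5.45 CPM in non-irradiated libraries, a log2 fold change of -0.18 ± 0.05 (adjusted p = 0.0390). The call was kept without non-irradiated library II or IV and was lost without any other single library, with adjusted p from 0.0551 to 0.106. The log2 fold change was -0.16 without irradiated libraries I and II and was not called (adjusted p = 0.230, with 2 irradiated libraries left), and over all 17 alternatives it lay between -0.22 and -0.15. The other aggrecanase-type members were not called. Adamts1, a versican-cutting protease, averaged 76.2 ± 0.969 CPM in irradiated and 71.6 ± 2.78 CPM in non-irradiated libraries (adjusted p = 0.212), and Adamts5, the other main aggrecanase, averaged 54.3 ± 2.42 CPM in irradiated and 54.0 ± 3.23 CPM in non-irradiated libraries (95% interval of log2 fold change -0.10 to 0.12).

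The 3 procollagen proteases, which remove the amino-terminal propeptides of fibrillar collagens, were all tested and none was called. Adamts14 had 113, 111, 117 and 107 CPM in irradiated libraries, against 122, 122, 119 and 122 CPM in non-irradiated libraries. The groups did not overlap, and the log2 fold change of -0.11 ± 0.04 missed the threshold (adjusted p = 0.0960). Adamts2 averaged 95.8 ± 1.38 CPM in irradiated and 99.1 ± 3.43 CPM in non-irradiated libraries, with a 95% interval of log2 fold change from -0.13 to 0.03. Among the other ADAMTS genes, Adamts6, a protease linked to fibrillin microfibrils, averaged 53.3 ± 2.70 CPM in irradiated and 62.2 ± 6.08 CPM in non-irradiated libraries (log2 fold change -0.22, adjusted p = 0.0540). Adamts12, which like ADAMTS7 cuts the cartilage protein COMP, averaged 36.6 ± 1.19 CPM in irradiated and 41.2 ± 2.45 CPM in non-irradiated libraries (log2 fold change -0.17, adjusted p = 0.0586). With 1 library left out, each was called in 1 of 8 cases, without non-irradiated library III (adjusted p = 0.0132 for Adamts6 and 0.0112 for Adamts12). The largest adjusted p with 1 library left out was 0.136 for Adamts6 and 0.157 for Adamts12. Over the 17 alternatives Adamts6 was called lower in 5 and Adamts12 in 3. Without irradiated libraries I and II Adamts6 was not called (adjusted p = 0.310). Adamts7 was the most abundant ADAMTS per kilobase, with 23.4% of the family sum, and averaged 169 ± 7.25 CPM in irradiated and 165 ± 8.10 CPM in non-irradiated libraries (adjusted p = 0.682). Of the ADAMTS-like genes, Adamtsl5 averaged 30.8 ± 1.34 CPM in irradiated and 29.0 ± 1.49 CPM in non-irradiated libraries, Adamtsl1 stood at 0.698 ± 0.115 CPM in irradiated and 0.756 ± 0.138 CPM in non-irradiated libraries, and Adamtsl3 had 39 counts in all, with none of the 3 tested ones called.

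Ordered by level per kilobase over all libraries, Mmp10 came first, then Timp1 (161 ± 8.42 CPM per kb in irradiated and 176 ± 15.7 in non-irradiated libraries) and Mmp2 (163 ± 3.11 in irradiated and 147 ± 8.55 in non-irradiated). Next came Adam9 (116 ± 4.78 in irradiated and 118 ± 1.66 in non-irradiated), Mmp14 (119 ± 1.42 in irradiated and 108 ± 5.38 in non-irradiated) and Timp2 (70.1 ± 1.65 in irradiated and 67.2 ± 5.72 in non-irradiated). Timp1 and Mmp2 did not differ beyond their spread in irradiated libraries, nor did Adam9 and Mmp14. The called members sat lower in this order, with Adam19 at place 9, Adamts4 at 15, Mmp19 at 18, Adam12 at 32 and Mmp17 at 33. Of the 36 members that were not tested, 10 had no count in any library, 14 had 1 to 9 counts over all 8 libraries and 12 had 10 to 74.

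A list of 32 genes was read from the same test. It held genes that process, anchor, inhibit or clear these enzymes. It also held related proteases outside the member rule, Adamdec1 among them, and proteins that act with those proteases. Of the 32 genes 21 were tested, with none higher and 1 lower (4.76%, near the 4.15% of all genes tested that were lower). Before adjustment 1 was higher and 3 were lower at p under 0.05, and DESeq2 and limma-voom called none higher. The gene that fell was Sh3pxd2b, the scaffold TKS4 of podosomes, where MMP14 and MMP2 act on matrix. It was measured at 373, 399, 378 and 382 CPM in irradiated libraries, against 503, 424, 460.3 and 429 CPM in non-irradiated libraries. The groups did not overlap (383 ± 11.3 CPM in irradiated and 454 ± 36.5 CPM in non-irradiated libraries, log2 fold change -0.25 ± 0.05, adjusted p = 0.00995). Without irradiated libraries I and II it was -0.26 and was not called (adjusted p = 0.0578). Furin, the convertase that removes the propeptides of MMP14 and of many ADAMs, averaged 244 ± 18.1 CPM in irradiated and 239.6 ± 23.2 CPM in non-irradiated libraries (95% interval of log2 fold change -0.11 to 0.17). Reck, a membrane-anchored inhibitor of MMPs, averaged 15.6 ± 0.937 CPM in irradiated and 15.3 ± 1.56 CPM in non-irradiated libraries, with an interval of -0.13 to 0.19. Lrp1, the endocytic receptor that clears many of these proteases, Bsg, an inducer of MMPs, and Rhbdf2, the iRhom that carries ADAM17 to the surface, were not called either (adjusted p = 0.378, 0.687 and 0.568). The median log2 fold change over the 21 tested genes was -0.02.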

How the data were processed

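The authors deposited unnormalized read counts per Ensembl gene in 1 file per library. The submitters' processing notes name featureCounts 1.5.0-p1, STAR 2.5.2a, bcl2fastq 2.20.0.422 and the mm10 build. Which annotation release, strand setting and treatment of multiply mapping reads were used is not given in the sources used here.

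GENCODE M21 gave symbols for 55480 of 55573 identifiers, and the 93 without one held 0.000431% of counts. Its coordinates are those of mm10. Counts of all genes entered edgeR 4.0.16 (R 4.3.3, TMM factors, filterByExpr with a minimum count of 10 and a minimum total of 15, quasi-likelihood test, group as the one term), which tested 15259 genes and left out 40314. Benjamini-Hochberg adjustment ran over all 15259 genes, with 0.05 as the threshold of a call. Levels are TMM-scaled CPM, given as mean ± SD over 4 libraries. Levels compared between genes are divided by the kilobases of merged exons. TPM had been planned for these, but it moves the median gene by -0.06 (log2, irradiated over non-irradiated) and was kept as an alternative. Intervals of fold changes are 95% intervals of the fit.

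The ADAM genes were split by the zinc-binding pattern in the coding transcripts of GENCODE M21. Promoters are RefSeq sequences of GRCm38.p6. No 2 libraries of a group agreed within counting noise.

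The members, the lists and the alternatives were chosen with earlier results of these data known. Genes were named by a rule: those past the test, the most abundant of each class, the chromosome 9 cluster, a fixed set of known family members, the 6 with the smallest adjusted p among the rest, the 3 with the largest fold, and set regulators. Mmp11, Mmp15, Mmp16, Mmp24, Mmp25, Mmp28, Adam1b, Adam29 and, in the search for outliers, Adamts10 were named after their values were seen. Alternatives were DESeq2 1.42.0, limma-voom (limma 3.58.1), RLE or upper-quartile factors, a filter of 1 CPM in 4 libraries, no filter other than a count above 0 somewhere, the replicate numeral as a block, an offset for GC content and length (loess, span 0.5), each library left out in turn, irradiated libraries I and II left out together, and, chosen after seeing the data, TPM for the summed levels.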

Additional observations from a re-analysis of the deposited data

Results flagged for a closer look

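CPM of the tested members and the named regulators was searched, group by group, for 1 library far from the other 3 by Dixon's gap test at the 95% level. Of 106 groups of 4 libraries, 6 had such a library, and chance alone marks about 1 group in 20. Adam32 stood at 2.16 CPM in irradiated library I, against 1.45 to 1.55 CPM in the other irradiated libraries. Adamts10 stood at 46.9 CPM in irradiated library III, against 50.9 to 51.2 CPM in the others of its group. Timp1 was at 131 CPM in irradiated library IV, against 145 to 147 CPM in the other 3. Adamts12 was at 37.5 CPM in non-irradiated library III, against 42.2 to 42.6 CPM in the other non-irradiated libraries. Mmp27 was at 0.244 CPM in non-irradiated library III, against 0.314 to 0.318 CPM in the others. Mmp24 was at 0.410 CPM in non-irradiated library IV, against 0.279 to 0.298 CPM in the others.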

How the results depend on the processing

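The calls of Adam12, Adam19 and Mmp19 were kept in all 17 alternatives, with a largest adjusted p of 0.00801, 0.0346 and 0.0497, while those of Adamts4 and Mmp17 were kept in 10 and 8 of the 17. Mmp2, Mmp14 and Mmp10 were called higher in 8, 6 and 4 of the 17. Members called higher numbered 0 at first, 2 with upper-quartile factors, 3 with DESeq2, 2 with limma-voom, 4 without a filter, 2 with at least 1 CPM in 4 libraries and 1 with the GC content and length offset, and 0 to 2 with a library left out. Members called lower numbered 5 at first (of 634 genes lower in all), 7 with DESeq2 (of 775), 4 with limma-voom (of 614), 6 without a filter (of 798), 8 with the GC content and length offset (of 717), 3 without irradiated libraries I and II (of 295), and 3 to 5 with a library left out. Regulators called higher stayed at 0 throughout, and regulators called lower were 1 except for 0 without irradiated libraries I and II. With the replicate numeral as a block, 2 members were higher and 7 lower. The same-numeral correlations of deviations were 0.02, -0.03, 0.27 and 0.15. Irradiated libraries I, II and IV each correlated best with another numeral, though for IV only by 0.148 against 0.147, so the numerals are taken as names. Signs turned only for genes that were not called. Without irradiated libraries I and II the log2 fold change became 0.013 for Adam9, -0.015 for Adamts7, -0.0092 for Adam10, -0.033 for Adam17, -0.023 for Adamts5 and -0.071 for Furin. With 1 library left out, the lowest and highest log2 fold changes were -0.013 and 0.022 for Adam17, -0.030 and 0.039 for Adamts5, -0.0095 and 0.088 for Furin, -0.0082 and 0.10 for Reck, -0.044 and 0.00092 for Adam9, -0.19 and 0.018 for Adam32, -0.069 and 0.29 for Mmp27, and -0.031 and 0.066 for Adam10. The cause was not tested. Summed MMP levels were 0.14 higher (log2) in irradiated libraries, or 0.08 as TPM, and the log2 difference of the summed TIMP levels was -0.08, or -0.14 as TPM. Depth limits the members under 1 CPM: the 95% interval of the log2 fold change of Mmp27 ran from -0.49 to 0.81.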

Other observations

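Adamdec1, a relative of the ADAM genes whose symbol the member rule does not take, had 1 count in irradiated libraries and 5 in non-irradiated libraries, or 6 over all 8. Mmp1a, annotated as a polymorphic pseudogene and so left out of the members, had 4 counts over all 8 libraries, against 15 for its neighbour Mmp1b. Within the chromosome 9 cluster, Mmp12 had counts in 4 of 4 irradiated and 3 of 4 non-irradiated libraries, with 4 to 7 counts in irradiated and 0 to 7 in non-irradiated libraries. The mean level of Mmp12 was 0.0227 ± 0.00667 CPM per kb in irradiated and 0.00993 ± 0.0114 in non-irradiated libraries. None of these genes passed the filter on low counts, so no difference was tested.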
